A study of Homo sapiens with 2 samples.

Results

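Aminoacyl-tRNA synthetases attach each amino acid to its matching tRNA, and the charged tRNAs feed the ribosome. Human cells keep separate enzymes for the cytosol and for mitochondria, which translate their own genome, and for most amino acids each compartment has its own nuclear gene. Several cytosolic enzymes sit together in the multisynthetase complex, and many cytosolic enzyme genes are known targets of ATF4, the transcription factor of the amino acid and stress response. The genes described here were taken by symbol, and 37 of the 18083 symbols with a single row in the deposited table met the rule. They comprised 19 genes of cytosolic enzymes or subunits, 2 genes called dual below and 16 genes of mitochondrial enzymes. The dual genes, GARS1 and KARS1, have products that serve both compartments. Every one of the 37 genes had a single row. The rule left out FARS2, so the mitochondrial set here has no phenylalanine enzyme gene.

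The 2 libraries were made from oligo(dT)-selected RNA of U2OS, an established human osteosarcoma cell line, grown without synchronisation in 0.3 µM aphidicolin for 18 h. This drug inhibits the DNA polymerases that copy the genome, and the degree of inhibition in these cells was not measured here. Both libraries received the drug and no untreated library was analysed here, so every value below is a level and none is a response. Nothing in the labels tells whether they are separate cultures; differences between the libraries may therefore be technical only.

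The levels are RPKM, read counts scaled to exonic length and to the library total, and each mean below is given ± SD with n = 2. Recovered library totals were 13227805 reads (replicate 1) and 13020149 reads (replicate 2), of which the synthetase genes took 0.519% and 0.528%. Among bone and mesenchymal markers, the levels were SPARC at 280 RPKM, COL1A1 at 209 RPKM, VIM at 249 RPKM, SPP1 at 15.9 RPKM and RUNX2 at 8.55 RPKM. The osteoblast markers BGLAP, at 0.277 RPKM, and COL1A2, at 0.0515 RPKM, were low, and SP7 and IBSP were not used because they had no single row. BGLAP rested on 3 and 4 reads and COL1A2 on 3 and 12. Of BGLAP exonic bases, 33.4% are shared, chiefly with PMF1-BGLAP, and of VIM exonic bases 24.4%, chiefly with VIM-AS1. The part of this overlap in their levels was not tested. Of 8 listed markers of other cell types, CD3E and ALB were likewise not used because they had no single row. Among the remaining 6, KRT8 reached 29.8 RPKM and EPCAM 2.28 RPKM, while PTPRC, PECAM1, CDH5 and APOA1 lay between 0.0624 and 0.276 RPKM.

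Some cytosolic enzyme genes carried an ATF4-type element near an annotated start. RefSeq promoter windows (GRCh38.p14, 250 bases before to 50 after an annotated start) were found for 29 of the 37 genes. TTGCATCA, searched on both strands, is the core of the C/EBP-ATF response element that ATF4 binds. It was present for 6 of 14 matched cytosolic genes, 0 of 13 mitochondrial genes and 0 of 2 dual genes, against 1.08% of all 27305 symbols with a window and 0.866% of all 35116 windows. The related TTTCATCA, searched separately, was present in the dual gene GARS1 and in no other matched synthetase gene, against 1.37% of symbols and 1.11% of windows. These matches describe the letters in these windows and are not measured binding. The stretches below are shown because they are the matched windows of the genes whose levels follow. They read 5′ to 3′ on the gene's strand, with the match in capitals, and NARS1 carries the element on the opposite strand, as TGATGCAA.
AARS1, chr16:70289665-70289714, minus strand: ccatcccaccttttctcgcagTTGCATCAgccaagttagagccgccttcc
CARS1, chr11:3057397-3057446, minus strand: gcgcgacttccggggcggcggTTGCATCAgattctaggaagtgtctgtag
IARS1, chr9:92293682-92293731, minus strand: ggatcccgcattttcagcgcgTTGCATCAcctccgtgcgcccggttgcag
MARS1, chr12:57488043-57488092, plus strand: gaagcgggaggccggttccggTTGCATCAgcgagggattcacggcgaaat
NARS1, chr18:57621794-57621843, minus strand: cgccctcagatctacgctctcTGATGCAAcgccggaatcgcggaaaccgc
TARS1, chr5:33440946-33440995, plus strand: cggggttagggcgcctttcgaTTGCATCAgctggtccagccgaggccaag
GARS1, chr7:30594824-30594873, plus strand: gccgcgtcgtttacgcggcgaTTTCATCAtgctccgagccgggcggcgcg

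Counting the first transcribed base as 0, the element began at -187 in AARS1, at -33 in GARS1 and between -13 and 14 in the other 5 genes. The 6 genes with TTGCATCA spanned most of the cytosolic range, with CARS1 lowest at 10.1 RPKM and TARS1 highest at 78.5 RPKM.

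Nearly all synthetase genes were expressed. A total of 35 of 37 (94.6%) reached 1 RPKM in both libraries, against 66.7% of the 17912 distinct entries of the table. The median synthetase gene stood at 17.8 RPKM, against 3.53 RPKM for all entries, and 33 of 37 lay above that table median. SARS2 and VARS2, both mitochondrial, were the genes below 1 RPKM.

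**Figure D1:**
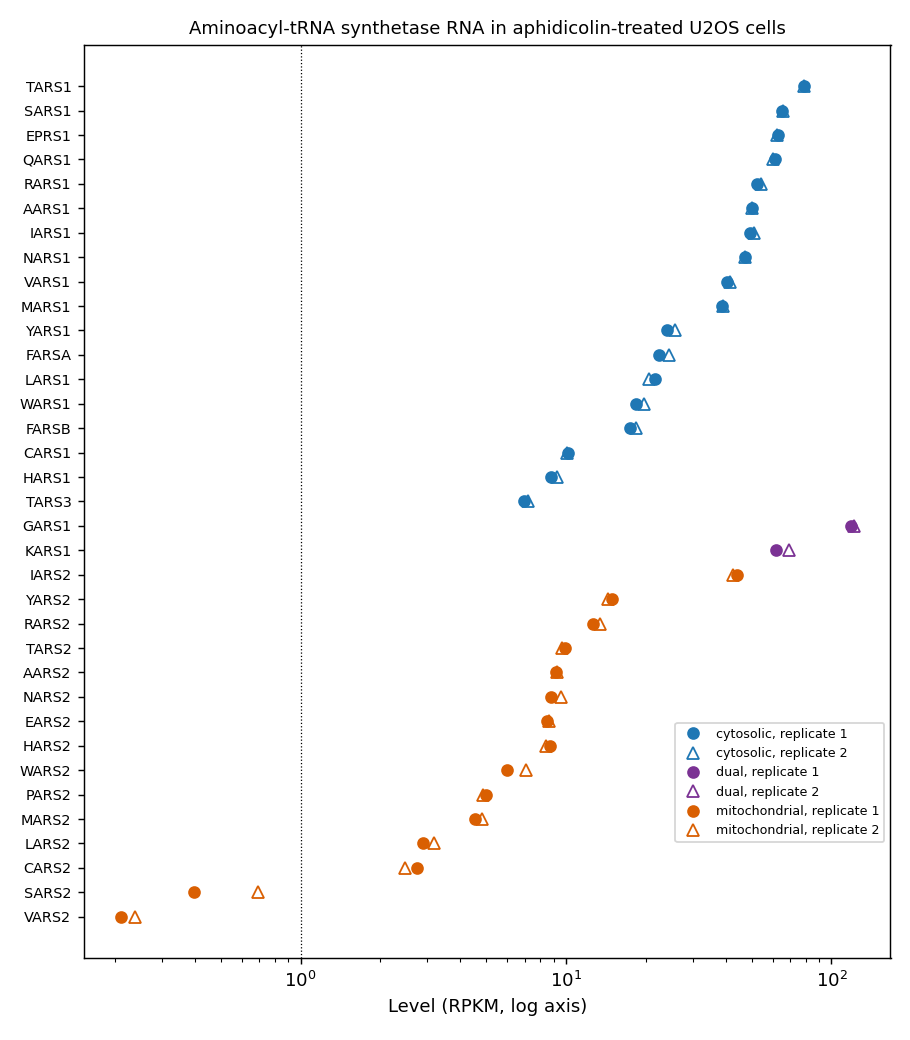
Level of 35 of the 37 synthetase genes in RPKM on a log axis, ordered by mean within the cytosolic, dual and mitochondrial classes; filled circles are replicate 1, open triangles replicate 2, and the dotted line marks 1 RPKM. The cytosolic genes run between 7.06 and 78.5 RPKM and the mitochondrial genes between 0.224 and 43.2 RPKM.

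The dual gene GARS1 had the highest level of the family. GARS1, the single glycine enzyme gene of the cell (chromosome 7, 30594681 to 30634033), had 119 and 121 RPKM in replicates 1 and 2, a mean of 120 ± 1.88. KARS1, whose spliced forms give the cytosolic and the mitochondrial lysine enzyme (chromosome 16, 75627474 to 75648643), had 62.0 and 69.5 RPKM. The levels do not separate the forms for either compartment, because the table has 1 value per gene. Both genes lay above all 16 mitochondrial genes, and KARS1 ranked beside the highest cytosolic genes.

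Among cytosolic genes, TARS1 led, followed by a close group of 3. The threonine enzyme gene TARS1 (chromosome 5, 33440696 to 33469539) had 78.5 and 78.6 RPKM. SARS1, whose serine-charged tRNA also supplies selenocysteine synthesis, averaged 65.4 ± 0.14 RPKM, the glutamate and proline enzyme gene EPRS1 62.8 ± 0.34 and the glutamine enzyme gene QARS1 60.8 ± 0.89. TARS1 stood clear of these 3 in both libraries. RARS1, the arginine enzyme gene, averaged 53.3 ± 1.56 RPKM.

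AARS1 and IARS1 could not be ordered, with means of 50.2 ± 0.16 and 50.2 ± 1.01 RPKM. The asparagine enzyme gene NARS1 averaged 47.1 ± 0.13 RPKM, the valine enzyme gene VARS1 41.0 ± 0.82 and the methionine enzyme gene MARS1 38.8 ± 0.20. Their order was the same in both libraries. Of MARS1 exonic bases, 13.3% are shared with other genes, among them the ATF4 pathway gene DDIT3, so some reads there cannot be assigned with certainty.

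Lower in the cytosolic class were YARS1 for tyrosine, FARSA and FARSB for phenylalanine, LARS1 for leucine and WARS1 for tryptophan. YARS1 averaged 24.9 ± 1.35 RPKM, LARS1, a leucine sensor for mTORC1, 21.1 ± 0.80, and WARS1, an interferon-inducible gene, 19.0 ± 0.92. CARS1 for cysteine at 10.1 ± 0.069, HARS1 for histidine at 8.995 ± 0.34 and TARS3 at 7.06 ± 0.16 were the lowest. TARS3, the older TARSL2, is a close relative of TARS1, whose level was 11.3 times that of TARS3 in replicate 1 and 10.95 times in replicate 2.

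FARSA and FARSB encode the subunits of a single cytosolic phenylalanine enzyme. FARSA had 22.4 and 24.4 RPKM, and FARSB had 17.4 and 18.3 RPKM. FARSA was thus higher per length in each library, by 1.29 and 1.33 times. That order depended on the exonic length: the FARSB values imply 6761 bases, against 3369 in GENCODE release 29, and at the GENCODE length FARSB would have 34.9 and 36.7 RPKM. In CPM, reads scaled to the library total with no division by length, FARSA averaged 57.0 and FARSB 121.

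The 8 enzyme genes of the multisynthetase complex lay within a 3.12-fold range. KARS1 at 65.7 ± 5.27 RPKM was the highest, followed by EPRS1 and QARS1, and LARS1 at 21.1 RPKM was the lowest. Their median was 51.7 RPKM, against 24.9 RPKM for the 13 cytosolic or dual genes outside the complex. That outside group includes both the highest level, GARS1, and the lowest, TARS3. In CPM the medians lay closer, at 270 for the complex and 193 outside it. The scaffold genes of the complex varied more, with AIMP2 at 38.6 ± 2.02 RPKM, AIMP1 at 9.85 ± 0.029 and EEF1E1 at 4.67 ± 0.21. Exonic overlap with other genes was 28.9% for AIMP2, 11.6% for AIMP1 and 18.7% for EEF1E1, and its part in these levels was not tested.

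A list of 12 synthetase genes known as ATF4 targets had a median of 48.7 RPKM, against 31.2 RPKM for the other 9 cytosolic or dual genes. The ATF4 targets ranged between CARS1 at 10.1 RPKM and GARS1 at 120 RPKM. The other 9 cytosolic or dual genes ranged between TARS3 at 7.06 RPKM and KARS1 at 65.7 RPKM, so the groups overlapped over most of their range.

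Cytosolic enzyme genes had higher levels than mitochondrial ones. The cytosolic median was 38.8 RPKM, at 38.6 in replicate 1 and 38.9 in replicate 2, and the mitochondrial median was 8.56 RPKM, at 8.60 in replicate 1 and 8.51 in replicate 2. On the log2(RPKM + 1) scale the cytosolic median exceeded the mitochondrial one by 2.06 ± 0.016, the SD between libraries. No p-value was computed, because genes are not replicates. Only 1 mitochondrial gene, IARS2, lay above the cytosolic median, and only 1 cytosolic gene, TARS3, lay below the mitochondrial median. Summed over genes, cytosolic levels came to 4.73 times the mitochondrial sum in replicate 1 and 4.76 times in replicate 2. In CPM, defined above, the medians were 193 for cytosolic and 31.6 for mitochondrial genes.

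**Figure D2:**
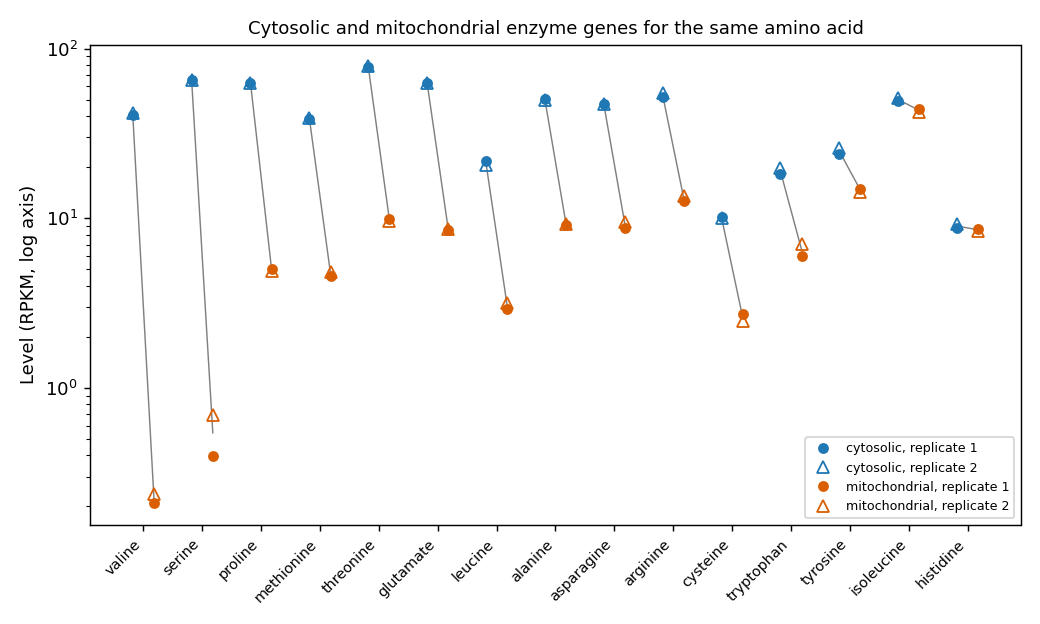
Level in RPKM, on a log axis, of the cytosolic gene (left of each pair) and the mitochondrial gene (right) for the same amino acid; filled circles are replicate 1, open triangles replicate 2, and grey lines join the means. The cytosolic gene is higher for all 15 pairs drawn, in both libraries, and the isoleucine and histidine pairs lie closest together.

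The amino acid pairs gave the same direction. Each of the 16 mitochondrial genes was set against the cytosolic gene for its amino acid, EPRS1 serving for both glutamate and proline. The cytosolic gene was higher in both libraries in 16 of 16 pairs, with a median ratio of 5.29-fold, or 4.62-fold over the 14 pairs with both genes at 1 RPKM. In 13 pairs the ratio was at least 2-fold in each library and in 10 at least 4-fold. Over the 14 amino acids with a gene of their own in each compartment, Spearman's rho of cytosolic and mitochondrial levels was 0.24, a description across genes of the same libraries.

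SARS2 and VARS2 gave the widest ratios. SARS1 had 65.3 and 65.5 RPKM, and SARS2 had 0.398 and 0.689 RPKM. VARS1 had 40.4 and 41.5 RPKM, and VARS2 had 0.210 and 0.238 RPKM. These ratios, 125-fold and 183-fold on average, rest on few mitochondrial reads, 17 and 29 for SARS2 and 18 and 20 for VARS2. The 95% exact Poisson interval of SARS2, which covers counting error only, ran between 0.232 and 0.637 RPKM in replicate 1 and between 0.462 and 0.990 in replicate 2. That of VARS2 ran between 0.125 and 0.333 RPKM in replicate 1 and between 0.145 and 0.367 in replicate 2.

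Both low genes share exonic sequence with neighbours, more than any other synthetase gene. SARS2 (chromosome 19, 38915266 to 38930896, minus strand) shares 57.0% of its exonic bases, 46.2% with the same-strand gene AC011455.2 and 10.8% with MRPS12, a mitochondrial ribosomal protein gene. VARS2 (chromosome 6, 30908242 to 30926459) shares 22.0% with GTF2H4, on the same strand. Across the other 35 genes the overlap was at most 15.8%, in HARS2. How reads in shared exons were counted is not given in the sources used here, and the part of the overlap in these low values was not tested.

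Next in ratio came the proline, methionine and threonine pairs, between 12.7-fold and 8.04-fold. EPRS1 had 63.0 and 62.6 RPKM, and PARS2, the mitochondrial proline enzyme gene, had 5.01 and 4.86 RPKM, a 12.7-fold ratio. MARS1 had 38.6 and 38.9 RPKM, and MARS2, a gene with a single exon, had 4.55 and 4.85 RPKM. TARS1 exceeded TARS2, at 9.88 and 9.65 RPKM, by 8.04 times. With TARS3 in the place of TARS1 the order turned: TARS3 had 6.94 and 7.17 RPKM, 0.723 times TARS2.

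For glutamate, leucine, alanine, asparagine and arginine the ratio lay between 7.34-fold and 4.09-fold. EARS2, which charges both glutamate and glutamine tRNAs in mitochondria, had 8.50 and 8.62 RPKM, against EPRS1 at the levels above. LARS1 had 21.7 and 20.5 RPKM, and LARS2 had 2.90 and 3.18 RPKM. The LARS2 values imply an exonic length of 12407 bases, against 6829 in GENCODE, and at the GENCODE length LARS2 would have 5.27 and 5.78 RPKM.

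AARS1 had 50.3 and 50.05 RPKM, and AARS2 had 9.17 and 9.27 RPKM. NARS1 had 47.1 and 47.2 RPKM, and NARS2 had 8.79 and 9.57 RPKM. RARS1 had 52.2 and 54.4 RPKM, and RARS2 had 12.6 and 13.5 RPKM. In none of these 3 pairs did the values of the genes approach each other. The SD of the log2 ratio between libraries was at most 0.082 and the smallest log2 ratio was 2.03. At GENCODE exonic lengths the log2 ratio was 2.16 for alanine, 2.365 for asparagine and 1.81 for arginine.

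The cysteine pair differed by 3.89 times and the tryptophan pair by 2.92 times. CARS1 had 10.2 and 10.1 RPKM, and CARS2 had 2.74 and 2.47 RPKM. WARS1 had 18.4 and 19.7 RPKM, and WARS2 had 5.99 and 7.05 RPKM. CARS1 and CARS2 each have about 10 kb of exon, 10037 and 10436 bases. Their log2 ratio was 1.96 in RPKM and 1.90 in CPM, and the part of length in their levels was not tested.

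The tyrosine, isoleucine and histidine pairs differed by less than 2-fold. YARS1 had 23.9 and 25.8 RPKM, and YARS2 had 14.9 and 14.4 RPKM. IARS1 had 49.4 and 50.9 RPKM, and IARS2 had 44.0 and 42.5 RPKM, a ratio of 1.12 in replicate 1 and 1.20 in replicate 2. IARS2 (chromosome 1, 220094102 to 220148041) was the highest mitochondrial gene and YARS2 the next. In replicate 1 the 95% counting interval of IARS1, 48.1 to 50.9 RPKM, did not overlap that of IARS2, 42.2 to 45.8 RPKM, nor did they overlap in replicate 2.

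HARS1 and HARS2 had nearly equal levels. HARS1 had 8.76 and 9.23 RPKM, and HARS2 had 8.70 and 8.41 RPKM, and the 95% counting intervals of the genes overlapped in each library. The log2 ratio of 0.07 ± 0.089 was smaller than its SD between libraries, and at GENCODE exonic lengths it was 0.02, with HARS1 no longer higher in both libraries. The genes lie head to head on chromosome 5, with RefSeq starts at 140691370 for HARS1 on the minus strand and 140691455 for HARS2 on the plus strand. Their shared promoter region is shown because a single stretch lies before both starts. The HARS1 window (GRCh38.p14, chr5:140691321-140691620, minus strand) reads as follows, with the 84 bases between the starts in capitals.
HARS1 window: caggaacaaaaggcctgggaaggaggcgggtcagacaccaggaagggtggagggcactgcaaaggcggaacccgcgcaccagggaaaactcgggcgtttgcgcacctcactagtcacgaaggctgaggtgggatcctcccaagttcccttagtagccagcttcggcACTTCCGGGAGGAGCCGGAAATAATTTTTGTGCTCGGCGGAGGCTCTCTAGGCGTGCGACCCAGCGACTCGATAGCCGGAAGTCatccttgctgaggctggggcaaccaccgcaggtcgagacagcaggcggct

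In GENCODE the annotated exons of HARS1 and HARS2 also overlap, over 5.6% of HARS1 and 11.7% of HARS2 exonic bases on opposite strands. The library protocol describes no strand marking, and without strand the reads of that stretch cannot be told apart.

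**Figure D3:**
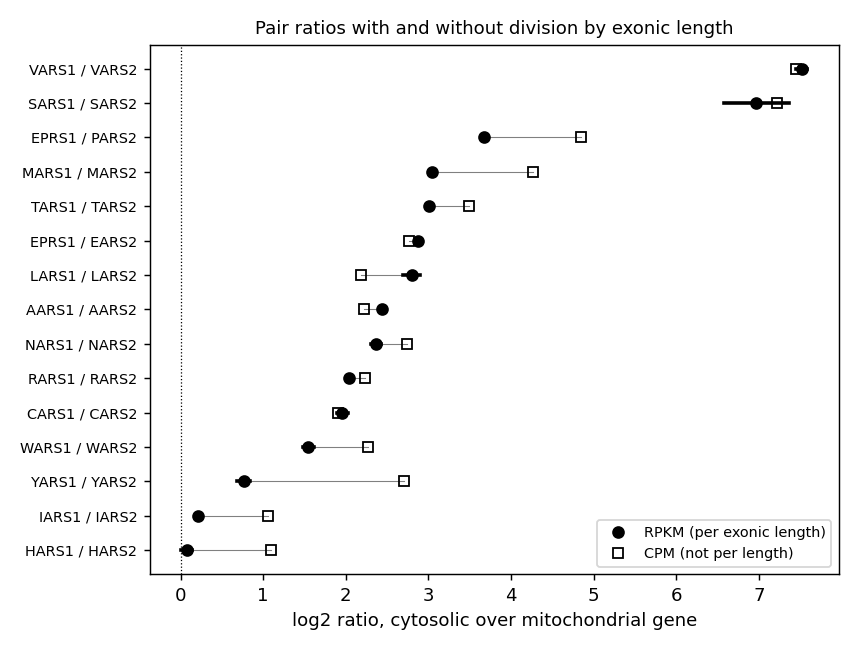
log2 ratio of the cytosolic over the mitochondrial gene for each pair; filled circles are the mean ratio in RPKM with a thick bar spanning the 2 libraries, and open squares are the mean ratio in CPM, not divided by exonic length. All 15 ratios drawn are above 0 on both measures, the tyrosine pair moving most, with 0.76 in RPKM and 2.70 in CPM.

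Without division by exonic length, 13 of 16 pair ratios moved by more than their spread between libraries, and none changed direction. The ratio was higher in CPM for 10 pairs and lower for 6. In CPM the cytosolic gene was again higher in 16 of 16 pairs, with a median ratio of 5.66-fold, and 15 pairs differed by at least 2-fold. YARS1 has 8212 bases of exon and YARS2 has 2147, and their log2 ratio was 0.76 in RPKM and 2.70 in CPM. For IARS1 over IARS2 it was 0.21 in RPKM and 1.05 in CPM, and for HARS1 over HARS2 it was 0.07 in RPKM and 1.09 in CPM. Among the lower ones, LARS1 over LARS2 had a log2 ratio of 2.80 in RPKM and 2.18 in CPM.

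Other parts of the translation machinery also had higher medians in the cytosolic set. Cytosolic ribosomal protein genes had a median of 76.4 RPKM over 80 genes taken by symbol, and mitochondrial ones 17.4 RPKM over 76 genes. The cytosolic symbol pattern admits paralogs with an added L and cannot match RPLP0, RPLP1, RPLP2 or RPSA. These 80 genes are therefore not the exact set of cytosolic ribosomal proteins. The difference of medians on the log2(RPKM + 1) scale was 2.06 ± 0.016 for the synthetases and 2.05 ± 0.055 for the ribosomal proteins. Of the listed translation factors, 5 cytosolic genes had a median of 150 RPKM and 8 mitochondrial genes 6.91 RPKM, a difference of 4.29 ± 0.064. The cytosolic list was one of elongation factors, while the mitochondrial list also held other translation factors. This difference therefore does not compare matched functions. EEF1A1, which delivers charged tRNAs to the cytosolic ribosome, averaged 330 ± 2.72 RPKM, and its mitochondrial counterpart TUFM 88.9 ± 3.71. EEF2, the translocation factor, averaged 450 ± 6.09 RPKM, and EEF1D was the lowest cytosolic factor at 14.3 RPKM, with 34.0% of its exonic bases shared, chiefly with AC067930.6. Of the mitochondrial factors 7 of 8 passed 1 RPKM, and TSFM averaged 0.225 ± 0.014 RPKM, on 10 and 9 reads and with 28.5% of its exonic bases shared. No test was made between these groups of genes.

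**Figure D4:**
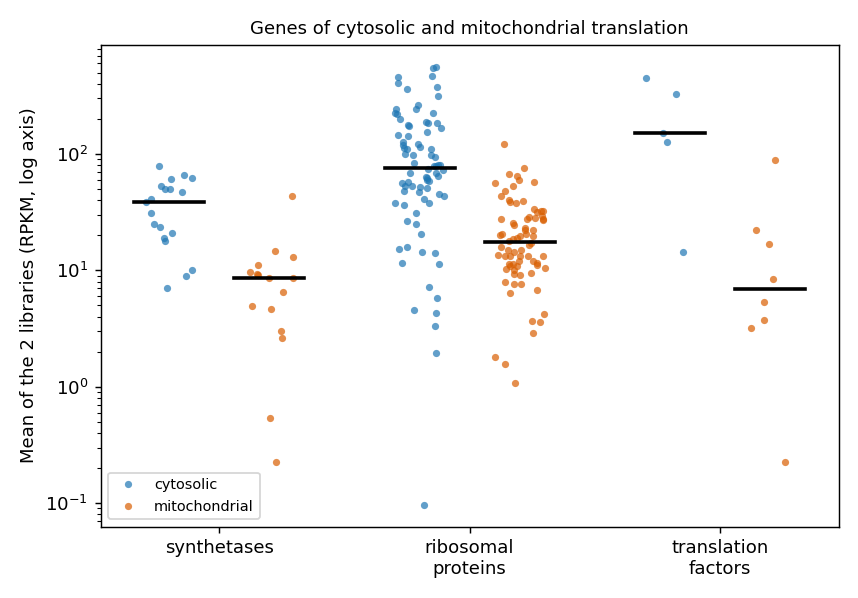
Mean level of the 2 libraries in RPKM, on a log axis, for genes of cytosolic (left) and mitochondrial (right) translation; each point is a gene, and black bars are medians. The synthetase medians are 38.8 RPKM for the cytosolic and 8.56 RPKM for the mitochondrial set, and the ribosomal protein medians are 76.4 and 17.4 RPKM.

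Other genes of tRNA charging were mostly low. Mitochondria make glutamine-charged tRNA from glutamate-charged tRNA through an amidotransferase, and its 3 subunit genes were expressed, GATC at 9.36 ± 0.58 RPKM, with 47.6% of its exonic bases shared, chiefly with SRSF9, QRSL1 at 4.02 ± 0.065 and GATB at 1.39 ± 0.12. MTFMT, which formylates the mitochondrial initiator methionine, stood at 7.49 ± 0.0053 RPKM. The selenocysteine genes SEPSECS and PSTK stood at 1.88 ± 0.15 and 1.10 ± 0.014 RPKM. Of the 3 genes that clear mischarged tRNAs, DTD1 at 3.05 ± 0.11 and DTD2 at 2.27 ± 0.39 passed 1 RPKM, and the alanine editing gene AARSD1 averaged 0.709 ± 0.094 RPKM, with 34.2% of its exonic bases shared, chiefly with PTGES3L-AARSD1.

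All 17 genes listed for tRNA maturation and export passed 1 RPKM in both libraries, with a median of 7.61 RPKM. The methyltransferase gene NSUN2 at 27.2 ± 0.69 RPKM, the La protein gene SSB at 26.8 ± 0.38 and the export receptor gene XPOT at 21.3 ± 0.0046 led them. TRIT1 at 4.70 ± 0.036 was among the low ones, and the 3′ processing gene ELAC1 at 1.13 ± 0.12 RPKM was the lowest.

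Of 16 genes listed for the amino acid response, 14 passed. ATF4 itself had 123 and 124 RPKM, the amino acid transporter gene SLC7A5 74.9 and 73.9 RPKM, and the proline synthesis gene PYCR1, with 29.7% of its exonic bases shared, 38.8 and 38.1 RPKM. ATF3 averaged 5.37 ± 0.39 RPKM and the stress factor gene DDIT3 5.97 ± 0.30, with 39.6% of its exonic bases shared, chiefly with MARS1. Below 1 RPKM were the asparagine synthetase gene ASNS at 0.748 ± 0.18 and STC2 at 0.187 ± 0.055. Of ASNS exonic bases 44.6% are shared, chiefly with AC079781.5, and the part of this overlap in its level was not tested. RNA levels do not show whether ATF4 protein was made.

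The libraries gave close values for the synthetases. The SD was under 5% of the mean for 28 of 37 genes and under 2% for 14. The median absolute log2 difference between libraries was 0.05, against 0.10 for all entries, whose median level was 18.5 CPM against 101 CPM for the synthetases. An exact binomial test (2-sided, recovered reads, p adjusted over 17912 entries) called 1 synthetase gene at 0.05, against 0.971% of all entries. This test covers counting error alone and compares these libraries, not conditions.

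The gene called was KARS1, with 3335 reads in replicate 1 and 3677 in replicate 2, an adjusted p of 0.000231 in the exact binomial test. It was the higher in replicate 2, as 0.62% of all entries were by this test. Its log2 ratio of replicate 1 over replicate 2 was -0.17 ± 0.034 (counting SE). A common spread beyond counting of 2.91% was estimated from these same 2 libraries. With that spread added, the adjusted p was 0.997 and no synthetase gene was called. Because the spread comes from the differences being tested, this is not an independent check of KARS1. An unadjusted exact p under 0.05 was found for 4 of 37 synthetase genes, against 9.21% of entries, and besides KARS1 these were WARS2, WARS1 and YARS1, with adjusted p-values of 0.483, 0.490 and 0.141. The log2 ratio of SARS2 was -0.80 ± 0.44, the widest of the family, and did not pass, at an adjusted exact p of 0.619.

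**Figure D5:**
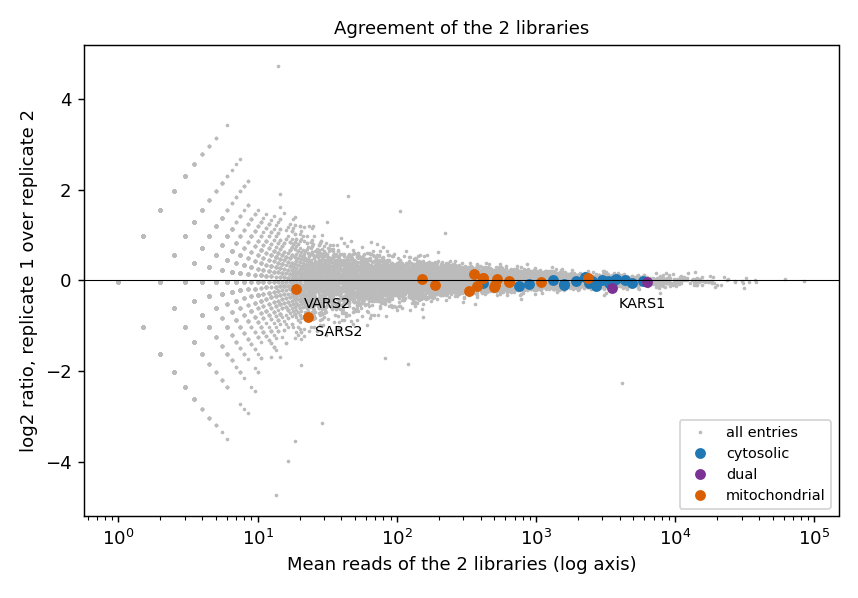
log2 ratio of replicate 1 over replicate 2 against mean reads (log axis); grey points are all 17912 entries and coloured points the cytosolic, dual and mitochondrial synthetase genes. KARS1 lies at -0.17 with 3335 and 3677 reads, and SARS2 at -0.80 with 17 and 29 reads.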

How the data were processed

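The deposited table holds RPKM, 1 column per library, per the file headers. Per the submitters' processing notes, the authors used Trim Galore, HISAT2 and featureCounts with hg38 and GRCh38.p13; versions, gene annotation, strand setting and filters are not stated in these sources. Of 18277 rows, 58 symbols with several rows were left out, and entries with identical values counted once.

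Whole reads were recovered from the ratios of both columns and the requirement that exonic lengths are whole; the remaining whole factor was set from exonic lengths in GENCODE release 29 (GRCh38), so an implied length is partly built in. The method of recovery was tried on simulated data with known totals close but not equal to those recovered here. That trial gave the method the true exonic lengths, so it cannot test genes whose length differs from GENCODE. In the deposited data, 43.88% of the symbols matched to GENCODE had an implied length equal to it. Overlap counts shared exonic bases on either strand. Libraries were compared by an exact binomial test with trimmed mean scaling (0.995 for replicate 2) and Benjamini-Hochberg adjustment. PCR reads carry no molecular identifiers, so intervals cover counting error only. Logs used a pseudocount of 1.

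The members and lists were chosen with earlier results of these data known. All members were to be named, with the extremes of each other list; some of these genes enter the counts and medians but are not reported here. Alternatives covered level, pseudocount, unit, class, length, scaling and each library. Computation ran in Python 3.11.15 with scipy 1.17.1, numpy 2.4.6, pandas 2.3.3 and matplotlib 3.10.9.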

Additional observations from a re-analysis of the deposited data

How the results depend on the processing

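The count of genes at 1 RPKM (35) lay between 31 at 5 RPKM and 37 at 1 CPM, and was 35 without either replicate. The cytosolic minus mitochondrial difference of medians (2.06 on the log2 scale) was 2.17 with a pseudocount of 0.1, 2.18 with none, 2.15 in TPM, 2.13 with dual genes in the cytosolic class, 2.09 with them in both classes, 2.10 with means, 2.01 for genes at 1 RPKM, 2.10 with FARSA and FARSB as 1 enzyme and 2.10 without TARS3. Without replicate 1 or 2 it was 2.07 and 2.04. In CPM (2.57) it was 2.65 with dual genes in the cytosolic class, 2.61 without TARS3, and 2.60 and 2.54 without replicate 1 or 2. The cause of these shifts was not tested. No pair ratio changed direction under CPM, a single library or GENCODE lengths averaged over libraries; at GENCODE lengths the cytosolic gene was higher in both libraries in 15 of 16 pairs, all but histidine, and with TARS3 for threonine also in 15. GENCODE lengths and the spread beyond counting were added after seeing the data; with that spread the genes differing between libraries numbered 0, against 1, and 12 in the whole table, against 174. Across the other scalings and filters KARS1 had an adjusted p between 0.000207 and 0.000588. An edgeR test was not run, because the files hold no counts, and the test between libraries cannot leave one out. No paired analysis was possible because there is only 1 group. Depth limits SARS2 and VARS2.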
